A study of Homo sapiens with 6 samples.

Results

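The genes described here encode 10 surface molecules through which a tumour cell is read by natural killer (NK) cells and T cells. They were taken by gene symbol from the deposited count table, and all 10 were found among its 58735 genes: the NKG2D ligands MICA, MICB, ULBP1, ULBP2 and ULBP3, the poliovirus receptor family members PVR and NECTIN2, and the B7 molecules CD274, CD276 and VTCN1. The cells were T47D, a human luminal breast cancer cell line in long use, with RNA-seq of 3 control libraries (titled CK) and 3 libraries of a treated group (titled CQ). Where 3 values are listed for a group below, they are replicates 1, 2 and 3 in that order. The series title names fine airborne particulate matter (PM2.5), and the extraction text, the same for all 6 samples, places RNA isolation at 48 h of exposure. The treatment of the CQ group is called exposure here on that basis, with its dose and any vehicle in the controls unknown (not given in the sources used here). T47D is a single line, so the groups compare cultures of 1 line with no immune cells added according to the labels.

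NKG2D is an activating receptor of NK cells and cytotoxic T cells. Its ligands are distant relatives of MHC class I molecules that healthy cells carry at low levels and that stress, DNA damage or transformation can raise. MICA and MICB span the membrane, whereas most UL16 binding proteins (ULBP) are held by a lipid anchor. PVR (CD155) and NECTIN2 (CD112) are adhesion molecules read by the activating receptor DNAM-1 and by the inhibitory receptors TIGIT and, for NECTIN2, PVRIG. CD274 (PD-L1) restrains T cells through PD-1, and VTCN1 (B7-H4) and CD276 (B7-H3) are related B7 molecules whose receptors are less well settled. All values below are of RNA, and neither surface protein nor shed protein was measured.

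MICA, ULBP1 and ULBP2 rose, and MICB, the closest relative of MICA, was not called. The RefSeq starts of MICA and MICB lie inside the deposited gene spans, which begin farther upstream, at 31399784 and 31494881. Their stretches are therefore not upstream of the gene as counted. The bases before the RefSeq start of all 4 genes are shown first. They are the stretches before the RefSeq start (GRCh38.p14), 5′ to 3′ on the plus strand: chr6:31403345-31403578 for MICA, chr6:31497895-31498085 for MICB, chr6:149963693-149963942 for ULBP1 and chr6:149941764-149941999 for ULBP2. Those of MICA, MICB and ULBP2 were ended where an annotated exon of the gene begins. That of ULBP1 is the full 250 bases and stops short of the gene as counted, which begins at 149964007. Capitals mark matches, on either strand, to GCGTG (the core of the xenobiotic response element bound by the aryl hydrocarbon receptor), GAANNTTC (a pair of heat shock element units) or GGGCGG (a GC box).
MICA: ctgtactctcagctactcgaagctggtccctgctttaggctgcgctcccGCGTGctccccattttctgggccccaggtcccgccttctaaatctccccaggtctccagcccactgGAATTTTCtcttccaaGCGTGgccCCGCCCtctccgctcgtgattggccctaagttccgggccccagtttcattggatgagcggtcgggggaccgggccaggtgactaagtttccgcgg
MICB: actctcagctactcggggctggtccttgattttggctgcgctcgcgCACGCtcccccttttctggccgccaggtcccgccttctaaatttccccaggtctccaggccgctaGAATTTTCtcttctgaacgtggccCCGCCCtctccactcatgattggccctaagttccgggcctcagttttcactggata
ULBP1: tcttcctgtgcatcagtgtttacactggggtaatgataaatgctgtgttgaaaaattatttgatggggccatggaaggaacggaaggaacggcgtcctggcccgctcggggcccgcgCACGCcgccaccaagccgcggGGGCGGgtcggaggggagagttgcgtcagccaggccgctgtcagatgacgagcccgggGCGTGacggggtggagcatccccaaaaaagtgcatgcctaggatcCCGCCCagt
ULBP2: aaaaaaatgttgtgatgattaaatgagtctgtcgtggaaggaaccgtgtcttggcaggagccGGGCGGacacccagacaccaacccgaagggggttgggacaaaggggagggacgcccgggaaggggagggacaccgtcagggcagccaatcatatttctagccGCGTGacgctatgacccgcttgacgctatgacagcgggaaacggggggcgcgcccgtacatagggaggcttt

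All 10 members had an entry among the RefSeq promoters, 11 entries in all since CD276 has 2. Over the 250 bases before the start, MICA and MICB were 82.7% identical in a global alignment, against 46.5% for ULBP1 and ULBP2. MICA and MICB shared the GAANNTTC match, which began 135 bases before the start of MICA and 139 bases before that of MICB, and which 5.78% of 35116 promoters of the same length held. MICA had 2 matches to GCGTG, MICB 1, ULBP1 2 and ULBP2 1, and 32.2% of all promoters had at least 1. Of the other members, NECTIN2 had 3 such matches and VTCN1 1, while none was found in the windows of ULBP3, PVR, CD274 and CD276. GGGCGG was present in 42.6% of promoters, and in all members except PVR and VTCN1. The letters TGATGNAA (an element of ATF4 and C/EBP factors, in 3.14% of promoters) and TGACGT (part of the cyclic AMP response element, in 7.1%) were in none of the 11 windows, and TGACNNNGC (antioxidant response element, in 10.9%) was in that of NECTIN2 alone. Matches shared bases in NECTIN2 (a GC box with TGACNNNGC) and among the GC boxes of CD276. Parts of some windows lie in annotated exons of the gene itself. These parts were 170 and 250 bases for the 2 CD276 entries, 122 for NECTIN2 and 112 for PVR, and at most 59 (MICB) for the other members. The TGACNNNGC match of NECTIN2 lies in such a part.

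Total counts ran from 30970218 to 36878525 per library, and 17337 genes had enough counts to be tested. The luminal markers EPCAM, GATA3 and CDH1 were abundant in both groups, and were not called (edgeR quasi-likelihood test, Benjamini-Hochberg adjusted p of 0.84, 0.72 and 0.42). Of 12 luminal markers 7 fell, ESR1 and PGR among them, and 2 rose. Over all genes tested, 22.1% fell and 21.8% rose. All 7 genes listed to check the exposure rose, and CYP1A1, induced through the aryl hydrocarbon receptor, had a log2 fold change of 10.39. As that list was chosen with earlier results of these data known, its rise is not an independent check. None of 16 genes listed as lymphocyte receptors reached the count needed for a test. The list takes in receptors of ligands other than the 10 members, CTLA4 among them, and the adaptor HCST. Of the 16 genes, 7 had no count in any library, including KLRK1 (NKG2D itself), PDCD1 (PD-1) and CTLA4. NCR3, the highest by mean TPM over both groups, had at most 7 counts in a library, and PVRIG, nearly level with it, had at most 12. The 20 leukocyte markers together stood at 10.5 to 12.4 TPM in controls and 9.01 to 11.6 TPM in exposed libraries. CD3D had no count in any library and PTPRC had 2 to 8. The part of other cell types in the results below was not tested.

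Of the 10 members, 9 could be tested and 5 were called at an adjusted p under 0.05: ULBP1, MICA, ULBP2 and PVR rose, and VTCN1 fell. This is 55.6% of the members tested, against 43.9% of all genes tested. By direction, 4 of 9 members rose (44.4%), against 21.8% of all genes, and 1 of 9 fell (11.1%), against 22.1%. Larger changes were rarer among all genes. At least a 2-fold rise was called for 3 of the 9 members, against 3.66% of all genes, and at least a 2-fold fall for 1 member, against 5.56%. In either direction, CPM did not overlap between the groups for 6 of 9 members, against 51.9% of all genes. The median log2 fold change was 0.15 over the 9 members and -0.02 over all genes tested. In bulk RNA, fewer cells carrying a transcript and less transcript per cell cannot be told apart.

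**Figure D1:**
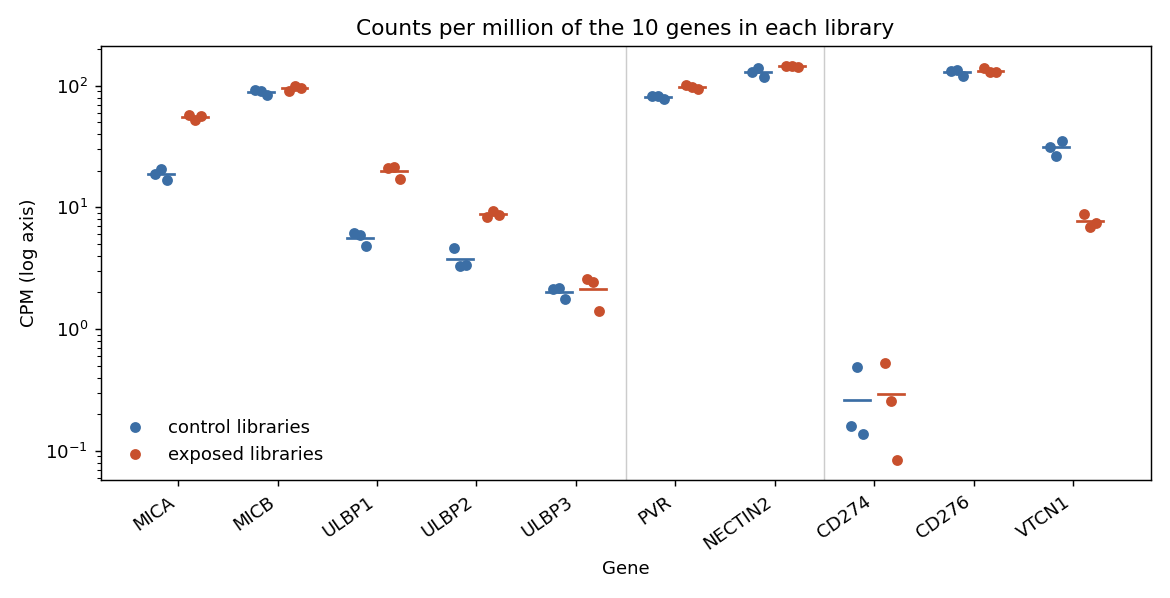
CPM (log axis) of the 10 genes in each of the 6 libraries, with 3 control points, 3 exposed points and a line at each group's mean. MICA, ULBP1 and ULBP2 lie higher in all exposed libraries, VTCN1 lies lower, and CD274 stays under 1 CPM in every library.

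MICA (ENSG00000204520, chromosome 6, 31399784 to 31415315, plus strand, in the HLA region) had 18.9, 20.6 and 16.8 CPM in controls and 58.0, 52.4 and 56.7 CPM after exposure. Every exposed library lay above every control library. CPM are counts scaled to library size, with edgeR's TMM factors applied. The rise was 2.97-fold (95% interval 2.60 to 3.40), or 1.57 ± 0.09 on the log2 scale (SE, edgeR quasi-likelihood test, adjusted p = 7.8e-15). By size it was rank 220 of 3778 genes that rose.

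MICB (ENSG00000204516, chromosome 6, 31494881 to 31511124, plus strand) begins 79.6 kb beyond the end of MICA. It had 91.4, 90.6 and 84.1 CPM in controls and 90.2, 99.1 and 96.2 CPM after exposure, so the groups overlapped. The log2 fold change was 0.10 ± 0.08 (SE, adjusted p = 0.29), and its 95% interval ran from -3.66% to 19.5%. Within each library, where scaling between libraries plays no part, MICA reached 0.242, 0.266 and 0.234 times the level of MICB per length in controls and 0.754, 0.620 and 0.691 times after exposure. The ratio was higher in all 3 exposed libraries (0.688 ± 0.0671 against 0.247 ± 0.0167, SD, n = 3 per group, exact two-sided permutation test, p = 0.1, the smallest that 3 against 3 can give). The same p of 0.1 was obtained for each of the 5 ratios between members that were computed, and stayed 0.1 after Benjamini-Hochberg adjustment.

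Reads of MICA and MICB could be separated over most of their length in the annotation. Of all distinct 50-base runs in the GENCODE 29 transcripts of MICA, 1.89% occurred in MICB transcripts too, and no 100-base run of MICA occurred in another gene. MICA shares 62 exonic bases with the noncoding gene HCP5 on the same strand, which had 207 to 278 counts per library against 612 to 2045 for MICA, and HCP5 was not called (log2 fold change -0.07, adjusted p = 0.73). Both MIC genes are highly polymorphic in people, and how the T47D alleles differ from the reference was not analysed here.

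The UL16 binding protein genes lie together on the long arm of chromosome 6. ULBP1 (ENSG00000111981, 149964007 to 149973710, plus strand) had 6.16, 5.90 and 4.80 CPM in controls and 21.1, 21.4 and 17.1 CPM after exposure. All exposed libraries were well above all controls. Its 3.53-fold rise (95% interval 2.94 to 4.24) was the largest rise among the members, or 1.82 ± 0.13 on the log2 scale (SE, adjusted p = 4.8e-13), and took rank 138 of the 3778 rises.

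ULBP2 (ENSG00000131015, 149942000 to 149949235, plus strand) ends 14.8 kb before ULBP1 begins. Its values were 4.66, 3.28 and 3.35 CPM in controls and 8.27, 9.30 and 8.71 CPM after exposure. The groups did not overlap, although control replicate 1 stood above the other controls. The rise was 2.32-fold (95% interval 1.85 to 2.91; log2 fold change 1.22 ± 0.16, SE; adjusted p = 2e-07). Of the 50-base runs of ULBP2, 29.4% also occur in its near-identical neighbour RAET1L, and 11.8% of its 100-base runs do. RAET1L had 3 counts in control replicate 1 and none in the other 5 libraries. How such reads were counted is unknown (not given in the sources used here), and the ULBP2 counts are uncertain to that extent.

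ULBP3 (ENSG00000131019, 150063150 to 150069095, minus strand) lies 89.4 kb from ULBP1. It had 80, 75 and 65 counts in controls and 87, 76 and 51 after exposure, or 2.03 ± 0.213 and 2.14 ± 0.634 CPM (SD, n = 3 per group). Exposed replicate 3 was the lowest of all 6 libraries and exposed replicate 1 the highest. The log2 fold change of 0.07 ± 0.25 (SE, adjusted p = 0.84) had a 95% interval of -26.4% to 50.7%. Its SE was the largest of the 9 members tested. Of the 50-base runs of ULBP3, 12.4% also occur in the pseudogene RAET1K, as do 6.86% of its 100-base runs. For ULBP1 these shares with RAET1K were 6.85% and 1.15%. RAET1K had 9 to 18 counts per library. How such reads were counted is unknown, and the ULBP3 counts and their ratio to ULBP1 are uncertain to that extent. Within libraries the ratio of ULBP1 to ULBP3 per length was 0.904, 0.859 and 0.847 in controls and 2.59, 2.74 and 3.80 after exposure, with no overlap.

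The other members of the NKG2D ligand family were counted beside these. RAET1G, which also encodes a UL16 binding protein, had 45, 65 and 39 counts in controls and 86, 113 and 104 after exposure, and rose by 1.13 ± 0.25 on the log2 scale (SE, adjusted p = 0.00052). It shares 10.2% of its 50-base runs with ULBP2 and 1.48% of its 100-base runs. RAET1E stood at 0.55 ± 0.30 on the same scale (SE, adjusted p = 0.14), and RAET1L was not tested. Within 100 kb of the cluster, 5 genes other than ULBP1, ULBP2 and ULBP3 were tested, and 3 of them rose: LRP11 at 2.07, RAET1G, and the antisense gene RAET1E-AS1 at 0.74 (log2). LRP11, a low-density lipoprotein receptor-related protein gene, went from 115, 89 and 64 counts in controls to 269, 339 and 443 after exposure. Over all genes tested, 21.8% rose and 22.1% fell. Around MICA and MICB, 2 of 9 other genes tested rose and none fell. These were NFKBIL1 at 1.07 and DDX39B at 0.55 on the log2 scale, while HLA-B, at 0.15, was not called.

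Levels per length are given as TPM, computed from the counts and the deposited gene lengths. MICB was the most abundant NKG2D ligand RNA in both groups, at 95.8 ± 4.04 TPM in controls and 99.3 ± 9.30 TPM in exposed libraries. MICA went from 23.7 ± 1.77 to 68.0 ± 1.34 TPM, ULBP2 from 8.45 ± 1.90 to 19.0 ± 1.996 TPM and ULBP1 from 5.40 ± 0.660 to 18.4 ± 2.42 TPM (SD, n = 3 per group). Summed, the 5 ligands stood at 148, 138 and 132 TPM in controls and at 200, 224 and 209 TPM after exposure. MICA made up 16.4% to 18.1% of that sum in controls and 29.9% to 33.8% in exposed libraries, and the share of MICB went from 68.7% ± 1.198 to 47.01% ± 1.93 (SD, n = 3 per group). The 3 ULBP genes together went from 20.1 ± 2.86 to 43.7 ± 5.23 TPM.

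**Figure D2:**
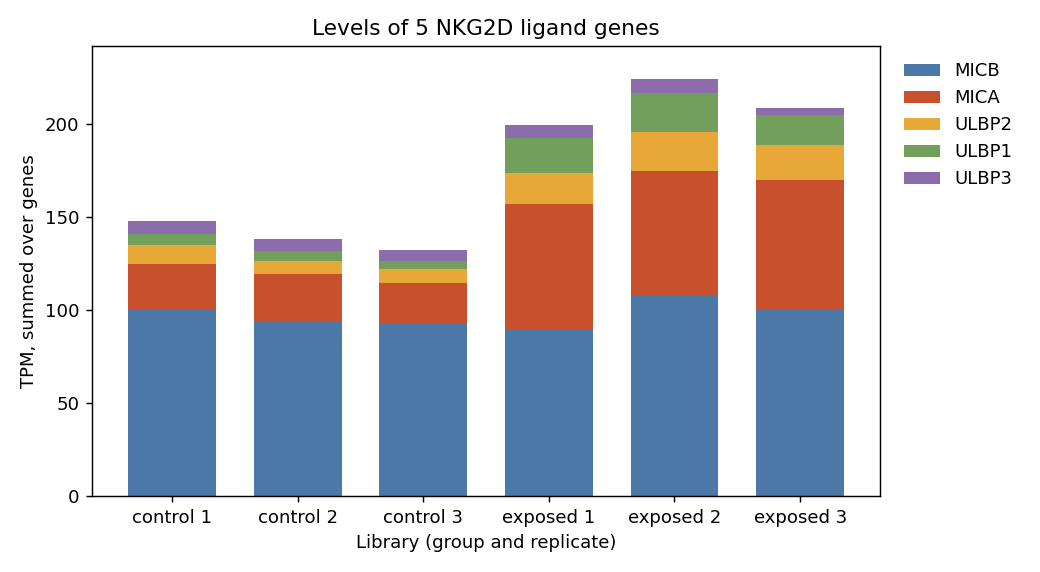
TPM of the 5 NKG2D ligand genes stacked for each library, with control replicates 1 to 3 on the left and exposed replicates 1 to 3 on the right. The MICB block is of similar height throughout, while the MICA, ULBP2 and ULBP1 blocks are taller in the exposed libraries.

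PVR (ENSG00000073008, chromosome 19, 44643798 to 44663583, plus strand) had 81.8, 82.5 and 77.7 CPM in controls and 102, 96.8 and 94.1 CPM after exposure. The groups did not overlap, and the step between them was small. The rise was 1.21-fold (95% interval 1.09 to 1.35; log2 fold change 0.27 ± 0.08, SE; adjusted p = 0.0035), rank 3326 of the 3778 genes that rose. A test against a 1.2-fold change did not call it (edgeR, adjusted p = 0.43). It shares 121 exonic bases with CEACAM19 on the same strand, which had 200 to 279 counts per library against 2833 to 3460 for PVR.

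NECTIN2 (ENSG00000130202, chromosome 19, 44846175 to 44889228, plus strand), 183 kb from PVR, had 130, 141 and 119 CPM in controls and 146, 146 and 141 CPM after exposure. On this scale the exposed values lay just above the controls, and per length they overlapped (97.6 to 109 TPM and 108 to 118 TPM). The log2 fold change was 0.15 ± 0.08 (SE, adjusted p = 0.1), with a 95% interval of -0.058% to 23.8%. Without control replicate 2 it was called (edgeR, log2 fold change 0.22, adjusted p = 0.012), and it was not called in any other of the 16 settings. Within 100 kb of PVR or NECTIN2 or between them, 4 of 15 other genes tested rose and 2 fell. The shares that rose and fell were 21.8% and 22.1% over all genes tested.

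CD276 (ENSG00000103855, chromosome 15, 73683966 to 73714518, plus strand) had 133, 135 and 119 CPM in controls and 139, 129 and 129 CPM after exposure. The groups overlapped. The log2 fold change was 0.04 ± 0.08 (SE, adjusted p = 0.72), and the 95% interval ran from -7.75% to 14.1%. Per length the mean was 70.3 ± 3.72 TPM in controls and 69.6 ± 1.44 TPM in exposed libraries, so the sign of so small a difference depended on the scale.

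VTCN1 (ENSG00000134258, chromosome 1, 117143587 to 117210960, minus strand) was the member that fell. It had 1180, 925 and 1274 counts in controls and 300, 212 and 271 after exposure, or 31.6, 26.6 and 34.96 against 8.83, 6.85 and 7.51 CPM. The highest exposed library was far below the lowest control. The log2 fold change was -2.01 ± 0.12 (SE, adjusted p = 6.7e-15), a level 4.01-fold lower, and took rank 163 of 3832 genes that fell. Its ratio to CD276 per length went from 0.445 ± 0.0888 to 0.107 ± 0.00949 (SD, n = 3 per group).

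CD274 (ENSG00000120217, chromosome 9, 5450503 to 5470566, plus strand) was close to absent. It had 6, 17 and 5 counts in controls and 18, 8 and 3 after exposure, did not pass the count filter and was therefore not called. The groups overlapped (0.262 ± 0.197 and 0.291 ± 0.225 CPM, SD, n = 3 per group; exact two-sided permutation test on log2 CPM, p = 0.9). A difference in PD-L1 RNA was not detectable at this depth. The related ligand PDCD1LG2 (PD-L2) and the costimulators CD80 and CD86 were not tested either for lack of counts.

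**Figure D3:**
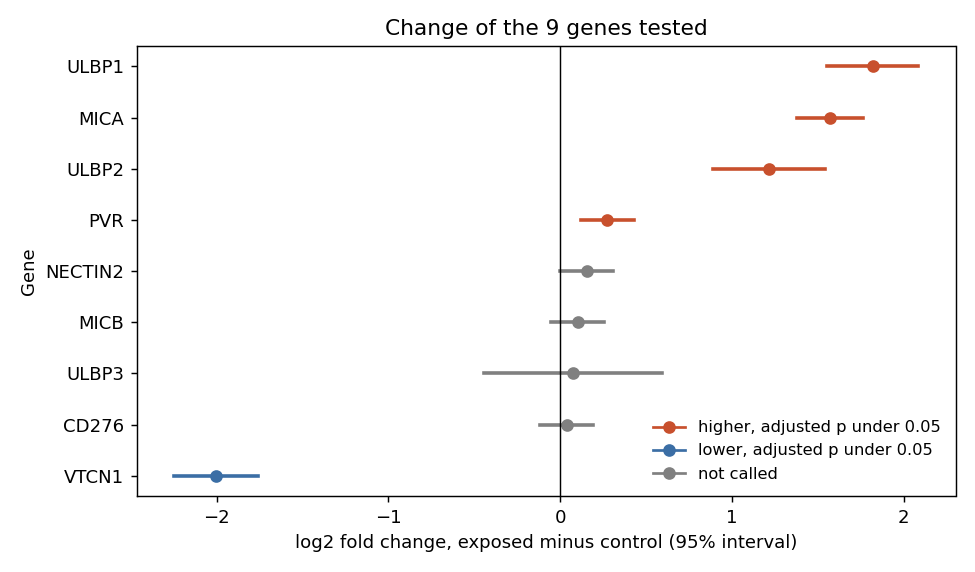
Log2 fold change, exposed minus control, of the 9 genes tested, with 95% intervals from the quasi-likelihood fit; colours give the call. ULBP1, MICA and ULBP2 lie above 1, PVR is at 0.27, VTCN1 is at -2.01, and the other intervals include 0.

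Ordered by TPM in controls, the members ran NECTIN2, MICB, CD276, PVR, VTCN1, MICA, ULBP2, ULBP3, ULBP1 and CD274. Neighbours whose 3 libraries overlapped were NECTIN2 with MICB, CD276 with PVR, and ULBP3 with ULBP1. In exposed libraries the order was NECTIN2, MICB, PVR, CD276, MICA, ULBP2, ULBP1, VTCN1, ULBP3 and CD274, with overlap between CD276 and MICA, ULBP2 and ULBP1, and VTCN1 and ULBP3. VTCN1, above MICA in every control library, thus stood near ULBP3 in exposed cells. Among all genes tested, the mean level of MICA exceeded that of 71.98% of genes in controls and 88.2% in exposed libraries, and that of VTCN1 exceeded 77.0% and 49.1%.

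Genes whose log2 CPM followed MICA most closely over the 6 libraries were BBC3, a proapoptotic BCL2 family gene, RNF114, a ubiquitin ligase, and OSGIN1, an oxidative stress response gene (Pearson's r of at least 0.999 each, among 14194 genes whose mean reached 1 CPM). For VTCN1 they were INHBB, an inhibin subunit, POLA1, of DNA polymerase alpha, and EVC, a cilium protein (r = 0.998 each). As 322 genes had an r of at least 0.99 with MICA and 119 with VTCN1, many other genes came nearly as close, and the 6 libraries share the same split into groups.

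Of 7 other nectins and nectin-like molecules, 5 were tested, 1 rose and 2 fell (median log2 fold change -0.24, against -0.02 over all genes tested). For this list and those below, the shares over all genes tested were 21.8% for rises and 22.1% for falls. NECTIN4, an epithelial adhesion molecule, rose from 104 ± 8.28 to 217 ± 10.1 CPM (SD, n = 3 per group; log2 fold change 1.06 ± 0.08, SE; adjusted p = 6.9e-13). NECTIN1, the herpesvirus entry receptor, fell from 151 ± 5.36 to 85.6 ± 3.88 CPM (log2 fold change -0.82 ± 0.07, SE; adjusted p = 1.3e-10). CADM1, the ligand of CRTAM, fell by 0.28 on the log2 scale.

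Of 15 other B7 and butyrophilin molecules 9 were tested, 3 rose and 2 fell (median 0.05). NCR3LG1 (B7-H6), a ligand of the NK receptor NKp30, rose from 17.1 ± 1.93 to 39.1 ± 5.42 CPM (SD, n = 3 per group; log2 fold change 1.196 ± 0.11, SE; adjusted p = 8.6e-11). BTN2A2 and BTN3A1, butyrophilins, rose by 0.70 and 0.44 on the log2 scale, and BTNL9 fell by 1.06. ICOSLG, the ligand of the T cell costimulator ICOS, was also lower, at 1.93 ± 0.731 and 0.833 ± 0.168 CPM (SD, n = 3 per group; adjusted p = 0.0022), and is named here as the remaining call of that list.

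Among 11 other inhibitory surface ligands, 6 were tested, 2 rose and 2 fell (median 0.23). LGALS3, a galectin, and HLA-E, the ligand of the inhibitory receptor NKG2A, rose by 0.48 and 0.36 on the log2 scale. CD47, the "do not eat me" signal read by macrophages, fell by 0.43 and CD24 by 0.27. HLA-G and CD200 had no count in any library.

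Of 10 other NK cell ligands and adhesion molecules 8 were tested, 4 rose and 2 fell (median 0.41). ICAM1, which binds the lymphocyte integrin LFA-1, rose from 16.7 ± 2.41 to 55.1 ± 1.48 CPM (SD, n = 3 per group; adjusted p = 3.4e-15), and BAG6, another NKp30 ligand, by 0.50 on the log2 scale. TNFRSF10B, a receptor for the death ligand TRAIL, rose by 0.73. CLEC2B, the ligand of NKp80, fell from 9.45 ± 0.529 to 3.30 ± 0.624 CPM (log2 fold change -1.51 ± 0.16, SE; adjusted p = 2.8e-09).

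**Figure D4:**
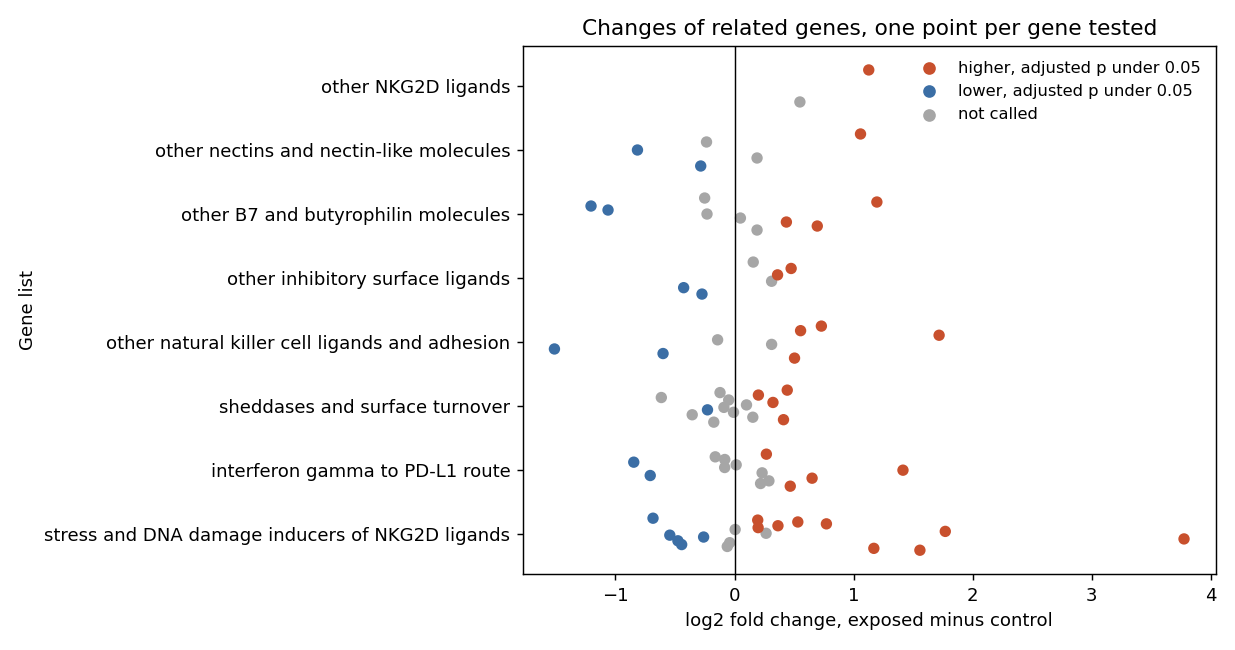
Log2 fold change, exposed minus control, of each tested gene of the 8 lists of related ligands, processing factors and regulators; colours give the call. Every list except that of other NKG2D ligands has genes called on both sides of 0, and the point farthest to the right is DDIT3 at 3.78.

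Proteins that shed, fold or stabilise these ligands were followed as 15 sheddase and surface turnover genes, of which 14 were tested, 4 rose and 1 fell (median -0.03). ADAM17, a protease that releases MIC and ULBP proteins from the surface, rose by 0.41 on the log2 scale, and the disulfide isomerase PDIA6, which takes part in MICA shedding, rose by 0.20 (adjusted p = 0.026). ADAM10 was at -0.17 and was not called (adjusted p = 0.13). CMTM6, which keeps PD-L1 at the surface, fell by 0.23, and the ubiquitin ligases STUB1 and MARCH8 rose by 0.44 and 0.32. ADAM10 and CMTM6 are named here outside the naming rule.

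The route from interferon gamma to PD-L1 had 13 genes tested, of which 4 rose and 2 fell (median 0.22). NLRC5, the transactivator of MHC class I genes, rose 2.67-fold from 4.46 ± 0.0618 to 11.9 ± 2.05 CPM (SD, n = 3 per group; adjusted p = 1.7e-09). The receptor chain IFNGR1 and the factor IRF2 rose by 0.47 and 0.65 on the log2 scale, whereas the kinase JAK1 fell by 0.71. IRF1, also outside the naming rule, was at 0.29 and was not called (adjusted p = 0.1).

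Of 19 genes listed as stress or DNA damage inducers of NKG2D ligands 18 were tested, 9 rose and 5 fell (median 0.20). ERN1, the IRE1 sensor of the endoplasmic reticulum, had a log2 fold change of 1.77 ± 0.09 (SE), and the stress factors ATF4 and ATF3 had 1.17 ± 0.08 and 1.56 ± 0.11. XBP1, whose RNA is spliced by IRE1, fell by 0.68. DDIT3, outside the naming rule, rose from 10.9 ± 3.27 to 149 ± 12.8 CPM (SD, n = 3 per group; adjusted p = 5.3e-06). The heat shock factor HSF1 rose by 0.20 (adjusted p = 0.036). In the DNA damage arm ATR fell by 0.44 and CHEK2 by 0.48, while ATM was at -0.06 and CHEK1 at -0.04 and neither was called (adjusted p = 0.7 and 0.73). These 5 genes, like DDIT3, were chosen after their values were seen.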

How the data were processed

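RNA of 6 T47D libraries was extracted with TRIzol and made into libraries with a NEBNext Ultra kit, per the labels' protocols. The authors deposited whole-number read counts per gene, and the build was GRCh38 per the submitters' processing notes. Aligner, counter, annotation release and strand setting are unknown (not given in the sources used here), so reads of overlapping or near-identical genes cannot be told apart. The deposited table also gives other values, a start, an end and a gene length; 58724 of 58735 gene IDs had the same start, end and strand in GENCODE 29.

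Groups came from the sample titles. The labels call the replicates biological without naming separate cultures, so p-values measure the spread between these samples only. The test used edgeR 4.0.16 (R 4.3.3) on the counts: the function filterByExpr (minimum count 10, minimum total 15) kept 17337 genes, libraries were scaled by TMM (factors 0.948 to 1.04), and a robust quasi-likelihood fit compared the groups, with Benjamini-Hochberg adjustment over all genes and a threshold of 0.05. The SE is the log2 fold change divided by the square root of F. The test was also run on simulated data in which far fewer genes changed than were called here. That run cannot show how the scaling behaves under so broad a change. The members and lists were chosen with earlier results of these data known, so p-values are never adjusted over a list alone and no list was tested as a set. Named are all members, up to 4 genes per list by smallest adjusted p, the most abundant lymphocyte receptor, and 3 genes most like MICA and VTCN1. Exceptions are marked, or serve as checks of the cell line, the exposure, neighbours or absence of a receptor or ligand. Some items are not reported here. Promoters are from RefSeq, GRCh38.p14.

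Alternatives were other size factors (RLE, upper quartile), no filter, at least 1 CPM in 3 libraries, DESeq2 1.42.0, limma-voom 3.58.1, a replicate block, leaving out each library, protein-coding genes alone and a test against a 1.2-fold change.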

Additional observations from a re-analysis of the deposited data

How the results depend on the processing

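ULBP1, MICA and ULBP2 were called higher and VTCN1 lower in all 16 settings tried, with log2 fold changes of 1.72 to 1.94, 1.499 to 1.64, 1.13 to 1.40 and -2.11 to -1.91. PVR was called in 15 of 16, at 0.23 to 0.32, and lost its call in the test against a 1.2-fold change (0.27, adjusted p = 0.43). That test, which asks for a larger change by construction, called 4317 genes in place of 7610. NECTIN2 was called in 1 of 16 settings, without control replicate 2. MICB, ULBP3 and CD276 were called in none (adjusted p of at least 0.19, 0.35 and 0.44). CD274 could be tested in 5 alternatives and was called in none (log2 fold change -0.16 to 0.62, adjusted p of at least 0.49).

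Leaving out 1 library gave 4 to 5 members higher, 1 lower, and 6262 to 7637 genes called. With CPM in place of TPM, which ignores gene length, 5 of 10 members kept their place in the order of levels in controls and 6 of 10 in exposed libraries. Deviations of samples with equal replicate numbers correlated at -0.13, -0.12 and 0.00474, and those with unequal numbers at -0.099 to 0.21. No shared deviation of equal numbers was seen, but 3 libraries per group cannot exclude that samples were handled in pairs. With the replicate block 6779 genes and the same numbers of members, 4 higher and 1 lower, were called, and the block changed no member's call. No scaling moved the median of all genes by 0.1 on the log2 scale. Depth limits CD274 and ULBP3, at 3 to 18 and 51 to 87 counts per library.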
